A study of Mus musculus with 4 samples.

Results

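The 6 mature arms of miR-128 and miR-129 were followed in the medial prefrontal cortex of stressed and unstressed mice. They were picked by name from the 1038 known mouse miRNAs of the table, and all 6 had at least 5 reads in a library. Mice of strain C57BL/6, by the study's methods C57BL/6J males from postnatal day 21, lived under chronic unpredictable mild stress (CUMS) for 3 weeks or without these stresses, and RNA from both sides of the cortex of single mice was used. The CUMS group held only mice whose sucrose preference, Y-maze and forced swimming results had all changed, so it stands for stressed mice selected by behaviour and not for all stressed mice. There were 2 small RNA libraries of each group. Nothing in the labels says that each library is 1 mouse, so the p-values below measure the spread between these libraries only.

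Both miRNAs are known as regulators of neuronal excitability. miR-128 is enriched in the brain, chiefly in neurons, and mice whose excitatory neurons or dopamine-responsive neurons lose it become hyperactive and develop seizures. miR-129-5p takes part in the scaling down of synapses when network activity stays high, and among its known targets are the potassium channel Kcna1 and the calcium pump Atp2b4. Each miRNA is made from a pair of hairpins at separate places in the genome. Dicer cuts a hairpin into a duplex of a 5p and a 3p arm, and an Argonaute protein keeps mainly the arm called the guide, while the other arm, the passenger, is mostly lost. The guide finds its targets chiefly through its seed, bases 2 to 8.

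The mature sequences, taken from RefSeq on build GRCm38.p6, show which arms can be told apart in these counts. They are written 5′ to 3′ with the seed in capitals, and 5 of the 6 arms were matched. The arm miR-129-1-3p is given by name.
miR-128-3p: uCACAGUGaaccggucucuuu
miR-128-1-5p: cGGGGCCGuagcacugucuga
miR-128-2-5p: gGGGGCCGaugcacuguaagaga
miR-129-5p: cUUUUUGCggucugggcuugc
miR-129-2-3p: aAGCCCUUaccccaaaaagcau

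The guide miR-128-3p was the same 21 bases in both hairpins, and so was miR-129-5p. Reads of these arms could therefore not be divided between their loci. The 5p arms of miR-128 shared the seed GGGGCCG and differed outside it, with 16 identical bases in an alignment of 23. Only these passenger arms tell the loci of miR-128 apart. Of the other miRNAs with a RefSeq sequence, 0 had the same bases 2 to 8 as one of the 5 matched arms. The seed letters of miR-128-3p also occur at bases 3 to 9 of miR-27a-3p and miR-27b-3p, arms of the miR-23 and miR-24 clusters, and these are shown with those letters in capitals.
miR-27a-3p: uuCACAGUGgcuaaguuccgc
miR-27b-3p: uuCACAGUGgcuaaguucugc

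The hairpins are shown because they give the place of each arm. Capitals mark the matched mature arms. Mir128-1 (chr1:128202361-128202430, plus strand) lies in an intron of R3hdm1, and Mir128-2 (chr9:112118636-112118711, minus strand) in an intron of Arpp21, a gene of striatal and cortical neurons. Mir129-1 (chr6:29022619-29022691, plus strand) overlaps an exon of the noncoding gene Gm3294. Mir129-2 (chr2:94241364-94241453, minus strand) lies in an intron of the noncoding gene Mir670hg.
Mir128-1: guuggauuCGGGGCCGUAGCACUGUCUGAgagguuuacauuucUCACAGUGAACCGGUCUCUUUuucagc
Mir128-2: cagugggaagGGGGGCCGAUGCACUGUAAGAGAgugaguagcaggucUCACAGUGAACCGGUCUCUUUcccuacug
Mir129-1: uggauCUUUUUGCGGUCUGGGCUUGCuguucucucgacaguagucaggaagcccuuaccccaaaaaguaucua
Mir129-2: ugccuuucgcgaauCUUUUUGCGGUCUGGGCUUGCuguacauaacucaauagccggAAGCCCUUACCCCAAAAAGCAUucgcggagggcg

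Positions 49 to 70 of the Mir129-1 hairpin were the stretch closest to miR-129-2-3p, with the single difference C20U, counted from the 5′ end of miR-129-2-3p. The first 19 bases were shared. The study matched reads of at least 18 bases without a mismatch and asked for an overlap of at least 16 bases with a mature sequence, so a read of 18 or 19 bases from the start of this arm matches both hairpins. The division of 3p reads between miR-129-1-3p and miR-129-2-3p is uncertain for this reason, and so is their sum if such reads were counted under both names. The methods do not state this. Some pairs of names carry equal values, such as miR-199a-3p and miR-199b-3p with a mean normalized count of 266.9 each, as counting under both names would give. Whether reads of the miR-129 3p arms were counted so was not tested.

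The values are normalized counts, that is, reads divided by a size factor of the library, which the table holds as means of 2 libraries. Whole reads of the single libraries were recovered from these means, and each group has a library a and a library b, whose replicate numbers are not known. The totals lay between 9589323 and 10783592 reads on known miRNAs. Control library b stood apart in the miR-183 and miR-200 clusters, miRNAs of sensory and epithelial cells. Their 8 listed arms took 9.32% of its reads and between 0.0393% and 0.0721% in the other libraries. The ratio of the group means of each arm is therefore also given without control library b. Since bulk tissue was used, fewer cells of a type and less RNA per cell cannot be told apart.

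The guide miR-128-3p was among the most abundant miRNAs of the cortex and did not separate the groups. It was read 188860 times in control library a and 169840 times in control library b, against 215452 times in CUMS library a and 159595 times in CUMS library b. These were 1.57% to 2.07% of all miRNA reads, and mmu-miR-128-3p ranked between 14 and 16 of 1038 in each library. After normalization the counts were 184733 and 169772 in control against 202862 and 169094 in CUMS. The CUMS libraries lay on either side of both control libraries. The ratio of the group means, CUMS over control, was 1.05, and it was 1.01 without control library b and 0.954 without CUMS library a. limma gave mmu-miR-128-3p a log2 difference of 0.06 (95% interval -0.31 to 0.44, adjusted p 0.948).

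The passenger miR-128-1-5p was higher in both CUMS libraries than in both control libraries. Its reads were 5499 (control library a), 4817 (control library b), 7156 (CUMS library a) and 7823 (CUMS library b). The normalized counts were 5379 and 4815 in control against 6738 and 8289 in CUMS. The mean normalized count of mmu-miR-128-1-5p was thus 5097 in control and 7513 in CUMS, a ratio of 1.47, and the groups did not overlap. Without control library b the ratio was 1.40, and over the leaving out of each library it lay between 1.32 and 1.63. The 2 CUMS libraries differed from each other by a ratio of 1.23 and the 2 control libraries by 1.12.

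This difference did not pass the test across all miRNAs. limma, run on log2(normalized count + 1) of the 719 miRNAs that reached 5 reads in any library, gave mmu-miR-128-1-5p a log2 difference of 0.55 (SE 0.17, 95% interval 0.16 to 0.95), an unadjusted p of 0.0140 and an adjusted p of 0.835. On the recovered reads edgeR gave 0.52 with an adjusted p of 0.849, and DESeq2 gave 0.55 (SE 0.19) with an adjusted p of 0.471. Without control library b the unadjusted p of limma was 0.101, and without CUMS library b it was 0.0702. In each of the 3 tests 0 of 719 miRNAs (0%) had an adjusted p under 0.05. At an unadjusted p under 0.05 limma called 28 miRNAs (3.89% of those tested), edgeR 30 and DESeq2 24. Of the 6 arms, 1 was among the 28. With 2 libraries against 2, the smallest p of an exact two-sided permutation test is 0.333, so a single miRNA cannot pass such a test.

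The other passenger, miR-128-2-5p, was much rarer and nearly level. It counted 293 and 300 reads in control against 322 and 340 in CUMS, or 287 and 299.9 normalized counts against 303 and 360. The CUMS libraries again had the higher counts, but CUMS library a, at 303, lay just above control library b, at 299.9. The ratio of the group means was 1.13, with 1.16 without control library b and 1.03 without CUMS library b. For mmu-miR-128-2-5p limma gave a log2 difference of 0.17 (95% interval -0.31 to 0.66, adjusted p 0.886), which leaves room for a change of the size seen for miR-128-1-5p.

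The guide of the other miRNA, miR-129-5p, was nearly level. It counted 5152 and 5553 reads in control against 5928 and 4882 in CUMS. The normalized counts were 5039 and 5551 against 5582 and 5173, and the groups overlapped. The ratio of the group means of mmu-miR-129-5p was 1.02, or 0.02 on the log2 scale, and TMM scaling in edgeR gave -0.01. The limma interval ran from -0.33 to 0.37 around 0.02 (adjusted p 0.962). The ratio was 1.07 without control library b and 0.969 without control library a.

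The 3p arms of miR-129 overlapped between the groups as well. miR-129-2-3p counted 542 and 694 reads in control against 668 and 475 in CUMS, with normalized counts of 530.2 and 694 against 629 and 503. Its ratio of group means was 0.925, but it was 1.07 without control library b and 1.03 without CUMS library b, so its direction rested on single libraries. miR-129-1-3p, the rarest of the 6 arms, counted 67 and 76 reads in control against 71 and 80 in CUMS, with normalized counts of 65.5 and 76.0 against 66.9 and 84.8. Its ratio was 1.07, with 1.16 without control library b and 0.945 without CUMS library b. The limma intervals were -0.64 to 0.43 for miR-129-2-3p and -0.59 to 0.77 for miR-129-1-3p on the log2 scale.

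**Figure D1:**
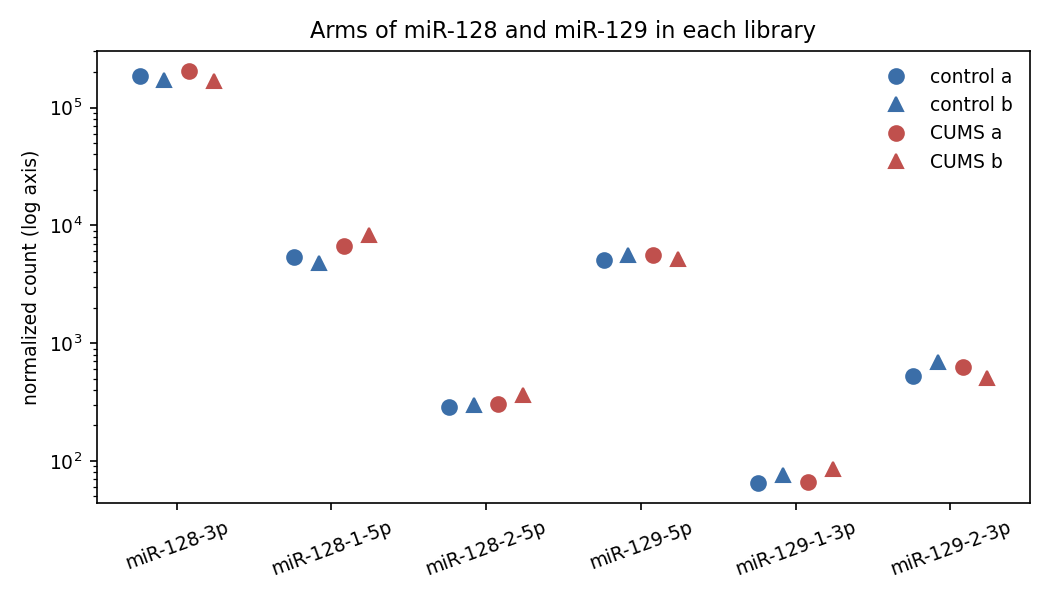
Normalized counts on a log axis for the 6 arms of miR-128 and miR-129, with 1 point for each library (circles for library a, triangles for library b, blue for control, red for CUMS). Both CUMS points of miR-128-1-5p (6738 and 8289) lie above both control points (5379 and 4815), while the points of miR-128-3p, miR-129-5p, miR-129-1-3p and miR-129-2-3p are mixed.

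**Figure D2:**
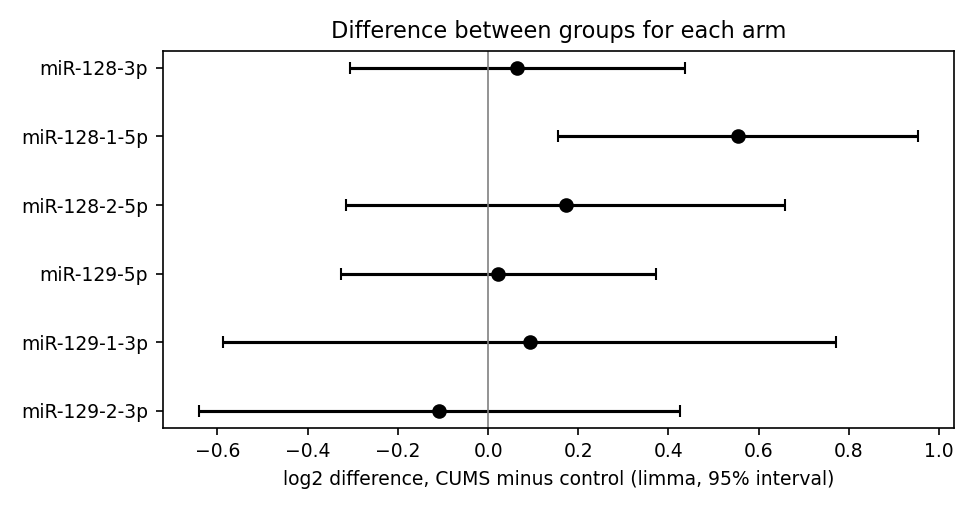
Log2 difference between CUMS and control of each arm, with the 95% interval of limma as bars, from 2 libraries of each group. The interval of miR-128-1-5p (0.16 to 0.95) lies above 0 and the intervals of the other 5 arms cross 0, but 0 of the 6 arms had an adjusted p under 0.05.

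Ordered by mean level, the arms were miR-128-3p, miR-128-1-5p, miR-129-5p, miR-129-2-3p, miR-128-2-5p and miR-129-1-3p. The mean normalized counts over the 4 libraries were 181615, 6305, 5336, 589, 312 and 73.3. The neighbours miR-128-1-5p and miR-129-5p were not separated in the control libraries, where they had 4815 to 5379 and 5039 to 5551 normalized counts. In the CUMS libraries they had 6738 to 8289 and 5173 to 5582. Every other pair of neighbours was apart in all 4 libraries. The arms are nearly equal in length, 21 to 23 bases for the 5 matched, but adaptor ligation differs between sequences, and its part in this order was not tested.

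The 6 arms were then set against all tested miRNAs. The median log2 ratio of the 6 was 0.08, against 0.02 for all of these. The CUMS libraries lay above the control libraries for 2 of the 6, and for 120 of 719 tested miRNAs (16.7%); they were below for 0 of the 6 and for 123 of 719 (17.1%). Of the 170 miRNAs with a mean of at least 1000 normalized counts, 9 (5.29%), miR-128-1-5p included, had a log2 ratio as far from 0 as that of miR-128-1-5p. For miR-128-3p this share was 70.0%, and for miR-129-5p 92.4%. Among the 9 were miR-182-5p, miR-183-5p, miR-141-3p and miR-429-3p, of the clusters in which control library b stood apart.

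**Figure D3:**
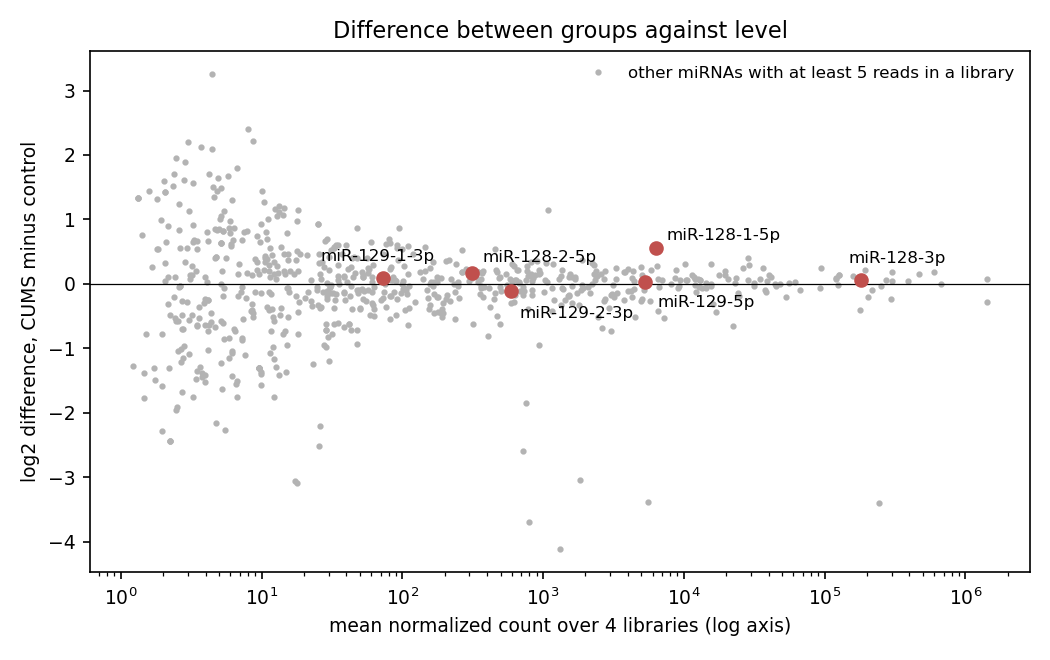
Log2 difference between CUMS and control from limma against the mean normalized count on a log axis, for the 719 tested miRNAs (grey) and the 6 arms (red). miR-128-1-5p at 0.55 lies above most miRNAs of like abundance, and the other 5 arms lie between -0.11 and 0.17.

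The ratio of guide to passenger within a library needs no size factor, and it separated the groups for miR-128. miR-128-3p had 32.6 (control library a), 33.2 (control library b), 28.8 (CUMS library a) and 19.6 times (CUMS library b) the reads of both its passengers together. In other terms the passengers made up 2.98% (95% Wilson interval 2.90 to 3.05) and 2.92% (2.85 to 3.00) of the miR-128 reads in the control libraries. They made up 3.35% (3.28 to 3.43) and 4.87% (4.76 to 4.97) in the CUMS libraries. These intervals cover counting error only, since each is drawn from the reads of a single library. The reads carry no molecular identifiers, so PCR copies count as separate reads and the intervals may be too narrow. The 2 control libraries lay within each other's counting error, and the 2 CUMS libraries were far apart from each other. CUMS library b held most of the difference.

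Most passenger reads were of miR-128-1-5p, so the ratio to both passengers together followed this arm. Against miR-128-1-5p alone the guide had 34.3 and 35.3 times the reads in control against 30.1 and 20.4 times in CUMS. Against miR-128-2-5p alone it had 645 and 566 times in control against 669 and 469 times in CUMS, where the groups overlapped. CUMS library b had the lowest ratio against this arm too. The passenger miR-128-1-5p comes from the R3hdm1 locus and miR-128-2-5p from the Arpp21 locus. The ratio of the first to the second was 18.8 and 16.1 in control against 22.2 and 23.0 in CUMS. It did not overlap between the groups and was 1.30 times as high in CUMS, or 0.38 on the log2 scale, and 0.27 without control library b. Guide reads cannot be divided between the loci, so this ratio compares passenger arms only and does not measure the output of the loci. The smallest p of the exact permutation test, 0.333, applies to these ratios too.

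For miR-129 the balance of the arms did not separate the groups. miR-129-5p had 8.46 and 7.21 times the reads of both 3p arms together in control against 8.02 and 8.80 times in CUMS. The 3p arms thus made up 10.6% and 12.2% of the miR-129 reads in control against 11.1% and 10.2% in CUMS. The lower arm of miR-129 held a larger share of the reads than that of miR-128 in each of the 4 libraries. The ratio of miR-129-2-3p to miR-129-1-3p was 8.09 and 9.13 in control against 9.41 and 5.94 in CUMS, with the uncertain division of reads named above. The ratio of the guides to each other overlapped between the groups, with 36.7 and 30.6 reads of miR-128-3p for each read of miR-129-5p in control against 36.3 and 32.7 in CUMS.

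**Figure D4:**
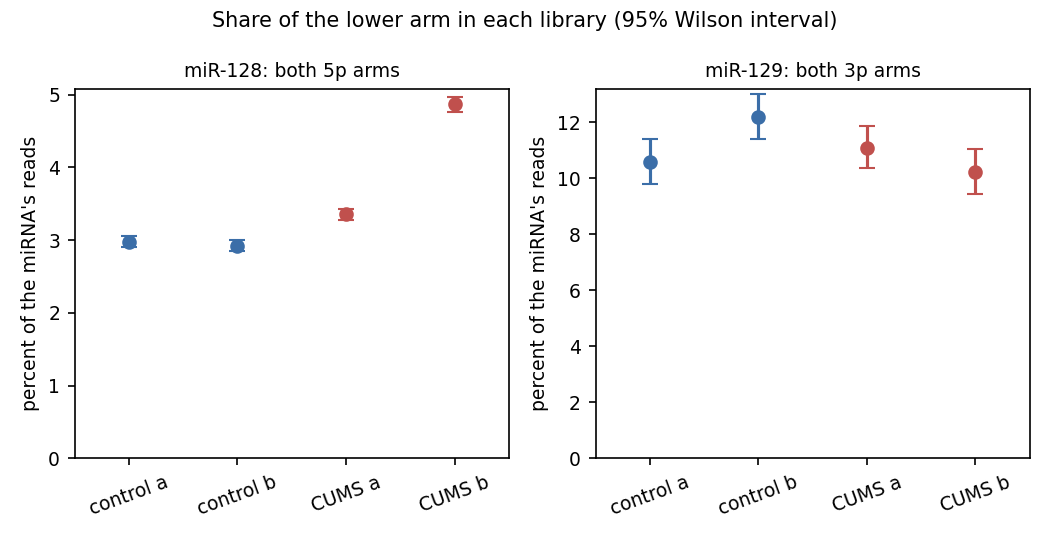
Percent of the reads of miR-128 that fell on both 5p arms (left) and of miR-129 on both 3p arms (right) in each library, with 95% Wilson intervals for counting error. The share of miR-128 was 2.98% and 2.92% in control against 3.35% and 4.87% in CUMS, and the share of miR-129 overlapped between the groups.

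The balance was then tested over all 203 miRNAs with a 5p and a 3p arm in the table, by limma on the log2 ratio of 5p to 3p reads. For miR-128 the log2 ratio was 0.47 higher in CUMS (95% interval -0.03 to 0.97), with an unadjusted p of 0.0617 and an adjusted p of 0.818. For miR-129 the difference was 0.10 (95% interval -0.35 to 0.56, adjusted p 0.952 in limma), and -0.01 without control library b. Of the 203 pairs 0 (0%) had an adjusted p under 0.05 and 9 (4.43%) an unadjusted p under 0.05 in limma, neither of these 2 among them. Without CUMS library b the difference of miR-128 was 0.19, without CUMS library a 0.75, and without control library b 0.46. The lower arm was higher relative to the other arm in both CUMS libraries than in both control libraries for 43 of 203 pairs (21.2%), miR-128 among them. In 47 pairs, miR-128 included, its mean change was at least that of miR-128. Among the 24 pairs whose lower arm had a mean of at least 1000 reads, a limit applied here after the values were seen, the log2 change ran from -0.25 for miR-126a to 0.38 for miR-431 and 0.47 for miR-128.

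**Figure D5:**
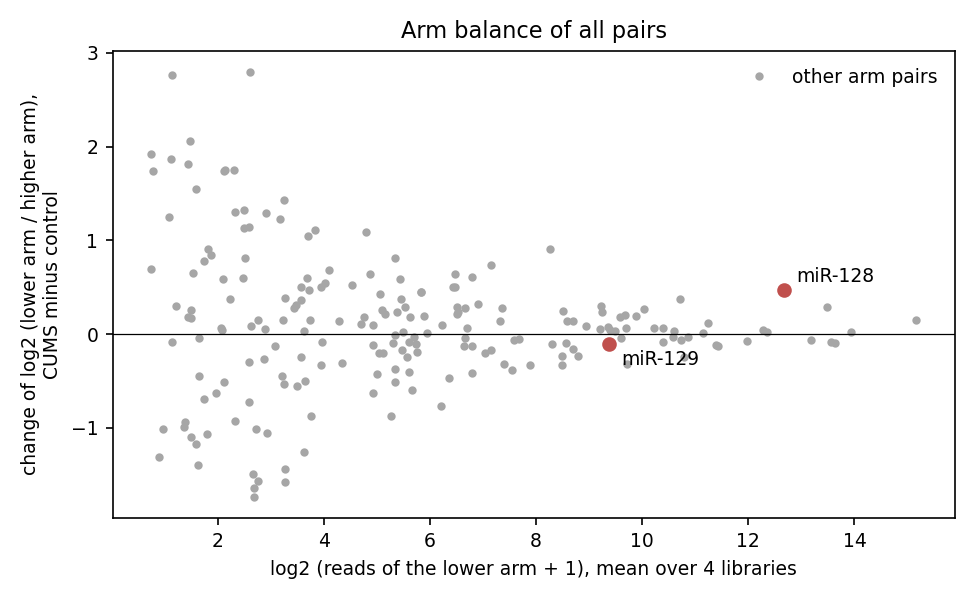
Change of the log2 ratio of the lower to the higher arm, CUMS minus control, against the log2 reads of the lower arm, for 203 pairs (grey) with miR-128 and miR-129 in red. miR-128 at 0.47 (0.19 without CUMS library b) lies above the pairs with similar reads, and pairs with few reads spread much farther on both sides of 0. Of the 203 pairs 47, miR-128 included, had a change at least as high, and the adjusted p of miR-128 in limma was 0.818.

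By profile over the 4 libraries, the miRNAs most like the guides were looked for among those with a mean of at least 1000. Likeness was the root mean square difference of log2 counts after each miRNA's own mean was taken off. The nearest to miR-128-3p of 167 compared were mmu-miR-136-3p (0.0353), mmu-miR-153-3p (0.0526) and mmu-miR-181a-2-3p (0.0529). The nearest to miR-129-5p were mmu-miR-488-3p (0.0210), mmu-miR-378a-3p (0.0254) and mmu-miR-30e-3p (0.0277). With 4 libraries these are descriptions only.

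Other miRNAs of neurons and excitability lay on both sides of 0. Of 14 listed, 0 had an adjusted p under 0.05 in limma and 1, mmu-miR-124-3p, an unadjusted p of 0.0421, beside 3.89% of all tested miRNAs under 0.05, with 25922 and 23143 normalized counts in control against 29393 and 35217 in CUMS. The CUMS libraries lay above the control libraries for 3 of the 14 and below for 3, beside 16.7% and 17.1% of all tested miRNAs, and the median log2 ratio was 0.13. The highest log2 ratio was that of miR-324-5p (0.46), which dampens potassium channel expression, and the lowest that of the dendritic miR-134-5p (-0.46). The rare miR-324-5p had 29 and 48 reads in control against 37 and 66 in CUMS, and its groups overlapped. The 14 together took 6.83% and 5.48% of the reads in control against 6.62% and 8.16% in CUMS. Most of these were reads of miR-9-5p, with 631128 and 501927 in control against 579916 and 689083 in CUMS.

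Marker miRNAs of other cells are given beside these results. The 3 of oligodendrocytes were all lower in both CUMS libraries than in both control libraries, with log2 ratios from -0.35 for miR-219a-2-3p to -0.20 for miR-219a-5p; 17.1% of all tested miRNAs lay below in this way. Their summed normalized counts were 7887 and 8365 in control against 6162 and 7338 in CUMS. The 5 of immune cells had a median log2 ratio of -0.40 with miR-142a-5p the highest (0.21) and miR-155-5p the lowest, at 1 to 5 reads in a library, too few for a ratio. Those with the most reads, miR-142a-5p and miR-150-5p, had 0.21 and 0.02. The rarer miR-142a-3p (43 to 64 reads) had -0.40 and miR-223-3p (4 to 25 reads) -0.66. Of the 4 of vessels, miR-126a-3p was the lowest (-0.15) and miR-145a-5p the highest (0.38). The groups overlapped for 3 of these 4, miR-145a-5p among them. The 3 of red cells ran from 0.09 for miR-486a-5p to 0.62 for miR-144-3p, and all 3 overlapped between the groups. miR-144-3p had 97 and 63 reads in control against 82 and 156 in CUMS. Of the choroid plexus markers, miR-204-5p had -0.45 and was lower in both CUMS libraries than in both control libraries. The rarer miR-211-5p (17 to 127 reads) had -0.46, but it differed widely between the libraries of each group and its groups overlapped. Its ratio therefore does not show a drop shared with miR-204-5p. All 8 of the miR-183 and miR-200 clusters were highest in control library b, miR-182-5p with 962144 reads there and 3931 in control library a. Of these lists 0 miRNAs had an unadjusted or adjusted p under 0.05 in limma, and their part in the difference of miR-128-1-5p was not tested.

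The miRNAs that carry the seed letters of miR-128-3p one base further in were measured as well. miR-27b-3p counted 122265 and 123066 reads in control against 138779 and 127448 in CUMS. Its normalized counts, 119593 and 123017 against 130669 and 135034, did not overlap, with a log2 ratio of 0.13. Both CUMS libraries lay above both control libraries in this way for 16.7% of all tested miRNAs. The adjusted p of mmu-miR-27b-3p in limma was 0.886. miR-27a-3p had 1901 and 1413 against 1893 and 2313 reads, a log2 ratio of 0.37, and its groups overlapped.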

How the data were processed

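Small RNAs of 2 control and 2 CUMS libraries were sequenced by the authors, who matched clean reads to miRBase precursors without a mismatch, counted them per mature miRNA and normalized them with DESeq. Bowtie and mm10 are named in the submitters' processing notes, and the versions used for the small RNA reads are not given in the sources used here. The deposited signal is a DESeq mean over the libraries of a group, in columns without group names that were assigned as the study prints them. The fold changes, log2 fold changes and p-values of the authors' own comparison, also deposited, were not used.

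Each group mean is a sum of whole reads of 2 libraries, each times a step. With 2 steps a group, 1038 of 1038 values of each group (100%) were recovered as whole reads within a relative residual of 1e-09. For 2 miRNAs of the control group another pair came close. Size factors were 1.02 and 1.00 (control) and 1.06 and 0.944 (CUMS), and the median of ratios of the recovered reads gave the same factors. A floor of 3 reads was 2.78e-05% to 3.13e-05% of a library. The precision of rare arms is limited by counting error.

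The main test was limma 3.58.1 with trend on log2(normalized count + 1), with a minimum of 5 reads in a library and Benjamini-Hochberg adjustment over all miRNAs, at a threshold of 0.05. The count tests of edgeR 4.0.16 (quasi-likelihood, TMM) and DESeq2 1.42.0 in R 4.3.3 were alternatives, along with other filters, pseudocounts and scalings and the leaving out of each library. Scripts were tested on simulated data. Python 3.11.15, numpy 2.4.6, pandas 2.3.3 and matplotlib 3.10.9 were used. Gene overlaps came from GENCODE on GRCm38, the build of mm10. The miRNAs named are the 6 arms, the 3 nearest in profile to each guide, miRNAs that share a seed, the highest and lowest of each list, and the miR-183 and miR-200 clusters. miR-27a-3p and miR-27b-3p, with the seed letters at an offset, and the pairs miR-126a and miR-431 were added after their values were seen. So were miR-124-3p, miR-9-5p, miR-142a-3p, miR-150-5p, miR-223-3p, miR-199a-3p and miR-199b-3p. The arms and lists were chosen with earlier results of these data known.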

Additional observations from a re-analysis of the deposited data

How the results depend on the processing

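Of 45 values recomputed with all 4 libraries for 12 results, 43 stayed within 1 SD between libraries (counts, within 1.5 times). Several could hardly move, since adding 1 changed the log2 values little and the rescaling took off only 0.02. The counts of called miRNAs and arm pairs were 0 in all of these settings. Stability is therefore not read from the 43. The log2 change of the miR-128 guide over its passengers was -0.47 with both and -0.11 with miR-128-2-5p alone. That of miR-129 was 0.10 with both 3p arms and -0.071 with miR-129-1-3p alone. The cause was not tested.

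With 2 libraries a group, leaving out a library can hardly move a log2 value by more than this SD, so ranges are given and stability is not read from them. Leaving out each library in turn gave log2 ratios of 0.40 to 0.70 for miR-128-1-5p, 0.048 (without CUMS library b) to 0.30 for miR-128-2-5p, -0.07 to 0.19 for miR-128-3p, -0.05 to 0.09 for miR-129-5p, -0.08 to 0.26 for miR-129-1-3p and -0.29 to 0.09 for miR-129-2-3p. The guide over passengers changed by -0.75 to -0.19 for miR-128 and by -0.01 to 0.22 for miR-129. The lower arm of precursor 1 over that of precursor 2 changed by 0.27 to 0.49 for miR-128 and by -0.13 to 0.53 for miR-129. The number of miRNAs called by limma ranged from 0 to 7, with the 7, all of the miR-183 and miR-200 clusters and all lower in CUMS, called without control library a. The number of arm pairs called ranged from 0 to 1, with 1 called without CUMS library b. In these fits the lone library of a group was assumed to vary like the other group.

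Scaling by library totals raised the median log2 ratio of the 359 miRNAs with a mean of at least 50 from 0.02 to 0.10. The log2 ratio of miR-128-1-5p was then 0.63, and its adjusted p lay between 0.471 and 0.989 over all tests. No paired analysis was possible because the table gives no replicate numbers for the recovered libraries. With 2 libraries a group, differences of rare arms such as miR-129-1-3p were not detectable at this depth unless large.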
